A study of Mus musculus with 32 samples.

Results

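The genes described here were 10 imprinted genes and imprinted long non-coding RNAs (lncRNAs), chosen by gene name from the 49671 genes listed for the mouse vomeronasal organ (VNO), the sense organ for pheromones at the base of the nasal septum. They were H19, Igf2, Meg3, Rian, Mirg, Dlk1, Peg3, Kcnq1ot1, Snrpn and Cdkn1c, and each name matched 1 gene. RNA was sequenced from VNO epithelium of 32 individual mice at 42 days of age (labelled P42), with 8 mice from each of 4 inbred strains and 4 females and 4 males in each strain. The strains were labelled 129S6/SVEV (129 below; the study's text names the strain 129Sv/J), C57/BL6 (B6), SJL/J (SJL) and SWR/J (SWR), and the mice carried no transgene or treatment. The comparisons asked how far the level of these RNAs differed between strains and between the sexes. All 6 marker genes of mature vomeronasal neurons, among them Omp and the G protein subunits Gnai2 and Gnao1, were detected in each strain, with summed levels between 25484 and 40710 normalized counts per mouse. The epithelium also held RNA of connective tissue and glands, and in such bulk RNA fewer cells of a type and less RNA per cell cannot be told apart.

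An imprinted gene is transcribed mainly from the copy inherited from 1 parent, because methylation laid down in the egg or the sperm marks the copies differently. Imprinted genes lie in clusters in which a methylated control region sets the pattern for several genes, often through a lncRNA, and many of them regulate growth and the number of dividing cells. H19, Meg3, Rian, Mirg and Cdkn1c are known as maternally expressed genes, and Igf2, Dlk1, Peg3, Kcnq1ot1 and Snrpn as paternally expressed genes. In an inbred mouse both copies have the same sequence, so the values below are the sum of both copies and hold nothing on the parent of origin.

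On the GRCm38 build the 10 genes lay on 2 chromosomes. H19, an lncRNA, lay at chr7:142575529-142578143 on the minus strand, downstream of Igf2, the gene for insulin-like growth factor 2, at chr7:142650766-142666816 on the same strand. On the same chromosome lay Kcnq1ot1, an antisense lncRNA starting within the potassium channel gene Kcnq1, at chr7:143203458-143296549 (minus strand), and Cdkn1c, the gene for the cell cycle inhibitor p57, at chr7:143458339-143461050 (minus strand). Peg3, a zinc finger gene, lay at chr7:6703892-6730431 (minus strand), and Snrpn, the gene for the splicing protein SmN, at chr7:59982495-60140219 (minus strand). The Dlk1-Dio3 cluster held Dlk1, a membrane protein of the Notch ligand type, at chr12:109452823-109463336, followed on the same plus strand by the lncRNAs Meg3 at chr12:109541001-109571726, Rian at chr12:109603940-109661716 and Mirg at chr12:109729764-109749460. Meg3, Rian and Mirg follow each other in 1 direction and are hosts of small RNAs, Rian of C/D snoRNAs and Mirg of microRNAs (miRNAs).

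Several members carry miRNAs within their own transcribed span, and the mature sequences below are shown because all 5 hosts, H19, Igf2, Meg3, Rian and Mirg, differed between strains at an FDR under 0.05 in 4 or 5 of the 6 pairs. Such differences were common, since 32.5% to 52.8% of all tested genes passed in each pair. RefSeq held 2 mature miRNAs within H19, 2 within Igf2, 3 within Meg3, 6 within Rian and 26 within Mirg. Capitals mark the seed, bases 2 to 8, which pairs with target mRNAs.
mmu-miR-675-5p: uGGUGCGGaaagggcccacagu
mmu-miR-675-3p: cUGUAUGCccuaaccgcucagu
mmu-miR-483-3p: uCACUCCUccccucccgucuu
mmu-miR-770-5p: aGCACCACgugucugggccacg
mmu-miR-770-3p: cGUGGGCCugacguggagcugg
mmu-miR-341-3p: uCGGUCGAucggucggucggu
mmu-miR-370-3p: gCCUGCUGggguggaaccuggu
mmu-miR-134-5p: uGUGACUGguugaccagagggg
mmu-miR-668-3p: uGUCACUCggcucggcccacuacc
mmu-miR-485-3p: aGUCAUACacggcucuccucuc
mmu-miR-154-5p: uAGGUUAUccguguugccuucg
mmu-miR-410-3p: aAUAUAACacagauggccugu
mmu-miR-453: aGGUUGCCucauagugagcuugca
mmu-miR-496a-5p: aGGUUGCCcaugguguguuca
The first pair comes from H19 and miR-483-3p from Igf2. The miR-770 pair comes from Meg3, miR-341-3p and miR-370-3p from Rian, and the others from Mirg. The 26 mature miRNAs within Mirg had 25 different seeds, since miR-453 and miR-496a-5p share the seed GGUUGCC. The libraries measured the long host RNAs and not the mature miRNAs. Over the 32 libraries the nested miRNA genes received 1586 read pairs within Mirg and 445 within Rian, against 16795 and 137875 for the hosts, and a pair that touched both a host and a nested gene was not counted.

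RefSeq entries for the 300 bases around a start (250 before it and 50 after it) were matched for 8 of the 10 members, with 15 starts in all. The windows of Meg3 and Rian are shown because both transcripts lie in 1 cluster and were higher in B6 and SJL than in 129, and that of Kcnq1ot1 because it is the start of the member with most reads. Capitals mark CpG dinucleotides in Meg3 and Rian, and the motif CCAAT in Kcnq1ot1 (GRCm38.p6).
Meg3, chr12:109540746-109541045, plus strand: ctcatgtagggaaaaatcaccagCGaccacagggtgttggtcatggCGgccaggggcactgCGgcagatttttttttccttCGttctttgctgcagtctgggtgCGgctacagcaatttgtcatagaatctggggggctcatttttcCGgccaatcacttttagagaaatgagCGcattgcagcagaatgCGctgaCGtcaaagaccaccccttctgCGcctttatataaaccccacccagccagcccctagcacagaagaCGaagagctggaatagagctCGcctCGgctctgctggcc
Rian, chr12:109603695-109603994, plus strand: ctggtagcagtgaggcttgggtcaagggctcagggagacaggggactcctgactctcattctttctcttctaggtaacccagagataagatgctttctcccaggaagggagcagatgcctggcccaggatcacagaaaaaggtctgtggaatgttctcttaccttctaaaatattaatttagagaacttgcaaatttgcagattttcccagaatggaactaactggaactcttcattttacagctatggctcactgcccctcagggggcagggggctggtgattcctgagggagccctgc
Kcnq1ot1, chr7:143296498-143296797, minus strand: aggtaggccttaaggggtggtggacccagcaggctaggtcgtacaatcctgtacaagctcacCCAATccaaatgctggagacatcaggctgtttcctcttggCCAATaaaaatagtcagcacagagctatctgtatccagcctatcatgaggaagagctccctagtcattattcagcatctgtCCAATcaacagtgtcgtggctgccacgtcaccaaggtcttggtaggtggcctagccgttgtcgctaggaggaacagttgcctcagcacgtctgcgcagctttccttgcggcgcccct
The Meg3 window shown held 13 CpGs and that of Rian held 0, against a median of 7 over 32851 promoters. Of the windows of this cluster that are not shown, that of another Meg3 start held 1 CpG, that of Dlk1 held 9 and that of Mirg held 10. The Mirg window, chr12:109734731-109735030, lies inside the gene and not at its annotated start (109729764). It contains 3 of the mature miRNAs, miR-668-5p, miR-668-3p and miR-485-3p. Motifs were searched on both strands. In the Meg3 window the hexamer TGCCGC, bound by the imprint-maintaining protein ZFP57 when it is methylated, matched 1 time, CCAAT matched 1 time, and TATAAA matched 2 times, on opposite strands with shared bases. The Kcnq1ot1 window held 3 CCAAT motifs. Of all promoters, 11.6% held TGCCGC, 37.4% held CCAAT and 13.6% held TATAAA.

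Each library held between 5106398 and 18640871 counted read pairs (median 11461344.5). Levels are normalized counts, that is, the read count divided by the size factor of the library. The library B6 female 1 stood apart: the median correlation of its log2 levels with its own strain was 0.953, against 0.970 to 0.986 in the other 31 libraries. It also had the highest summed gland markers (279545 normalized counts), next to 129 male 1 (278038), and the third highest library, SJL female 1, had 127635. Reads on 189 genes of families used in other tissues, such as hair keratin-associated and oocyte genes, served as a measure of background and had a median of 4.14 RPM (reads scaled to a common library total) in B6, 2.52 in SJL, 2.26 in SWR and 0.0327 in 129. B6 female 1 had 0.273 RPM, within the 129 range of 0 to 0.309, while the other B6 libraries had 1.42 to 20.6. Leaving out this library and using the background as a covariate are therefore not independent checks. Scaled by length, the same density corresponded to a median of at most 1.79% of the level of any tested member in any strain (H19 in B6), but to 65.8% of that of Dlk1 in B6. Where a member's call changed without B6 female 1, or where a printed call ended with this background as a covariate, the other value is given beside it.

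Compared per kilobase of exon, Rian was the most abundant member, with 229.5 normalized counts per kb over all mice, followed by Meg3 with 181 and Cdkn1c with 167. Igf2 (89.5), Peg3 (88.1), Snrpn (81.9) and Mirg (69.6) formed a middle group of like level per kb. Kcnq1ot1, whose single exon of 93.1 kb made it the member with most reads (147062 over all libraries), had 48.5 normalized counts per kb, and H19 had 33.9. Dlk1 was near the detection limit, with 76 reads in all 32 libraries and 0.447 normalized counts per kb. It was listed at 0 in 4 of the 8 129 libraries, 1 of the SJL and 2 of the SWR libraries, with no more than 9 reads in any B6 library, and it did not pass the filter on low counts. The other 9 members passed.

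**Figure D1:**
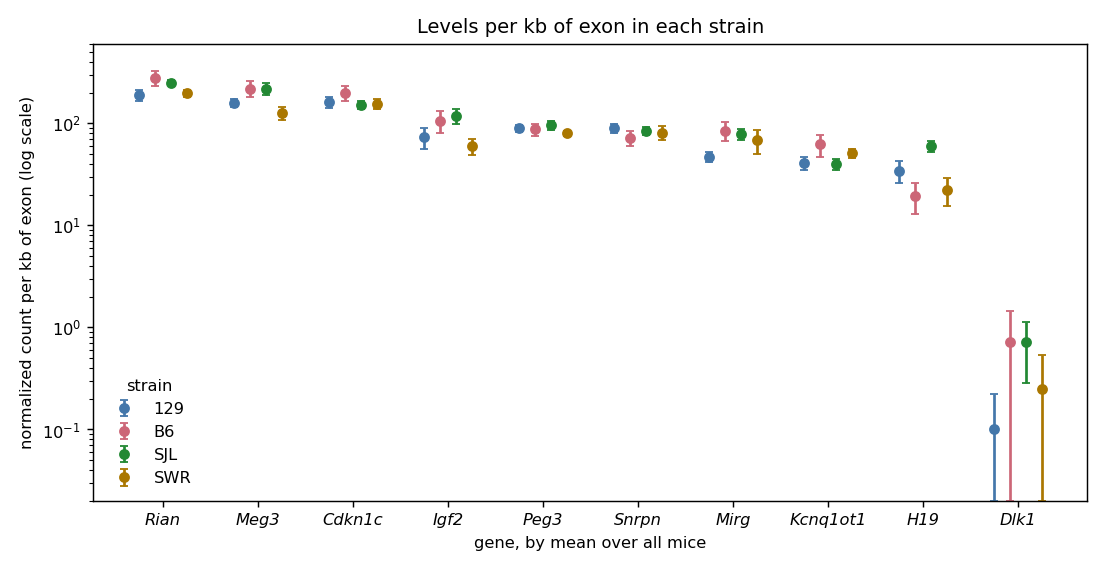
Level of each member per kilobase of exon on a log axis, as the mean of 8 mice of each strain, with bars of 1 SD (the lower bars of Dlk1 in 129, B6 and SWR are cut at the bottom of the axis). Dlk1, with 0.447 over all mice, lies far below the other members.

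H19 showed the widest strain differences of the 9 tested members. Its mean level was 146 ± 18.4 normalized counts in SJL, 84.6 ± 20.4 in 129, 54.7 ± 16.5 in SWR and 47.5 ± 16.02 in B6 (SD, n = 8 each), a ratio of 3.08 between the highest and the lowest mean. The 8 SJL mice ranged from 120 to 176 (median 147) and lay above every mouse of the other strains, which ranged from 49.6 to 104 in 129 (median 92.0), 27.0 to 78.9 in B6 (median 45.7) and 31.3 to 81.7 in SWR (median 50.4). H19 was higher in SJL than in B6 by an LFC (log2 fold change) of 1.63 ± 0.16 (SE; FDR = 1.66e-10, edgeR) and lower in SWR than in SJL (LFC −1.45 ± 0.15, FDR = 1.77e-09). Both passed the rule used for calls, an FC (fold change) above 2 with an FDR under 0.05. It was also higher in SJL than in 129 (LFC 0.79, FDR = 4.87e-05) and lower in B6 (LFC −0.84, FDR = 5.47e-05) and SWR (LFC −0.66, FDR = 0.000842) than in 129, with an FC under 2. B6 and SWR, neighbours at the low end, did not differ beyond their spread (LFC 0.17 ± 0.17, FDR = 0.422). The highest B6 value was that of B6 female 1; without it the LFC was 1.74 for SJL against B6 and −0.95 for B6 against 129. With B6 female 1 and 129 male 1 both left out, B6 against 129 passed the FC rule as well (LFC −1.03, FDR = 9.45e-07).

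Igf2, which shares its enhancers with H19, followed another order of strains. SJL (680 ± 113 normalized counts, SD, n = 8) and B6 (610 ± 150) were high and did not differ beyond their spread (LFC 0.17 ± 0.13, FDR = 0.30), and 129 (417 ± 97.6) and SWR (342 ± 59.1) were low (LFC of SWR against 129 −0.30 ± 0.13, FDR = 0.0676). The SJL mice ranged from 567 to 900 (median 663) and the SWR mice from 288 to 450 (median 322), with no overlap. The B6 mice ranged from 354 to 792 (median 597) and the 129 mice from 293 to 616 (median 391), so these strains overlapped with each other. Igf2 was lower in SWR than in SJL (LFC −1.003 ± 0.13, FDR = 1.57e-07), which only just passed the FC rule: leaving out 1 library lowered the size to below 1 in 13 of 32 cases (129 female 3 and males 2 and 4, B6 female 1 and male 2, SJL females 1 and 4, SWR females 1 to 4 and SWR males 1 and 4), and over all left-out libraries the LFC lay between −1.05 and −0.92, with an FDR of 1.13e-06 or less. It was −0.995 with the background as a covariate (FDR = 2.39e-07). It was also lower in SWR than in B6 (LFC −0.84 ± 0.13, FDR = 3.21e-06) and higher than in 129 in SJL (LFC 0.70, FDR = 3.95e-05) and B6 (LFC 0.54, FDR = 0.000816). With the background as a covariate the last of these fell to an LFC of 0.44 (FDR = 0.0934).

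The ratio of H19 to Igf2 within a mouse set B6 apart in its median, with 0.0752 (range 0.0344 to 0.223) against 0.209 in 129 (0.124 to 0.291), 0.209 in SJL (0.176 to 0.269) and 0.156 in SWR (0.0927 to 0.276). SJL mice thus had high levels of both RNAs, B6 mice had high Igf2 with low H19, and SWR mice were low in both. The highest ratio in B6 was that of B6 female 1, which overlapped with the other strains. Summed markers of bone and cartilage, such as Col2a1 and Acan, had the same order of strain medians as Igf2 (344 normalized counts in SJL, 285 in B6, 198 in 129 and 195 in SWR; ranges 268 to 430, 180 to 444, 111 to 334 and 150 to 316), with all 6 markers detected. Their part in the result was not tested. Other cell type lists had other orders, such as fibroblasts, with medians of 20513 in SJL, 20066 in B6, 18081 in SWR and 11334 in 129.

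**Figure D2:**
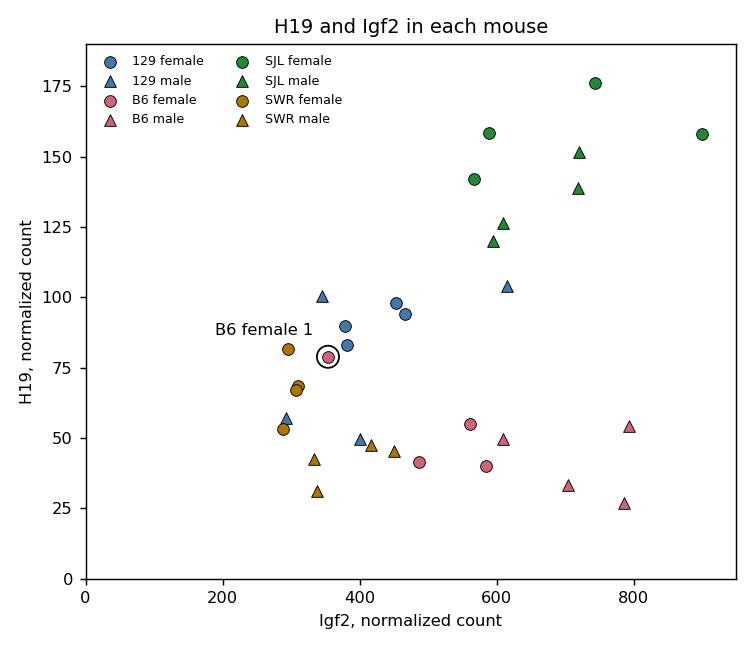
H19 against Igf2, both in normalized counts, with 1 point per mouse coloured by strain, circles for females and triangles for males. SJL mice lie at 120 to 176 for H19, above all other mice, and B6 female 1 (ringed) lies apart from the other B6 mice with 354 for Igf2 and 78.9 for H19.

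The 3 lncRNAs of the Dlk1-Dio3 cluster shared a low level in 129 and a higher level in B6 and SJL. Meg3, an RNA known for a role in the cell cycle and p53 signaling, was at 3954 ± 701 normalized counts in B6 and 3952 ± 527 in SJL, at 2875 ± 268 in 129 and at 2295 ± 333 in SWR (SD, n = 8). B6 and SJL did not differ (LFC −0.01 ± 0.10, FDR = 0.967), and SWR was lower than B6 (LFC −0.80 ± 0.10, FDR = 7.44e-08), SJL (LFC −0.79 ± 0.10, FDR = 1.26e-07) and 129 (LFC −0.33 ± 0.10, FDR = 0.00765). The SWR mice, at 1756 to 2714 (median 2303), lay below all SJL mice, at 3365 to 4907 (median 3849), and the 129 mice, at 2357 to 3216 (median 2925), lay below the SJL mice too. The B6 mice ranged from 2375 to 4620 (median 3996), and 7 of the 8 lay at 3864 or above. Meg3 was higher than in 129 in B6 (LFC 0.46 ± 0.10, FDR = 0.000266) and SJL (LFC 0.45 ± 0.10, FDR = 0.000463). With the background as a covariate neither passed (LFC 0.25, FDR = 0.207, and LFC 0.31, FDR = 0.0694).

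Rian, the host of snoRNAs that guide methylation of other RNAs, was at 5112 ± 872 normalized counts in B6, 4570 ± 251 in SJL, 3602 ± 285 in SWR and 3458 ± 422 in 129 (SD, n = 8). The neighbours B6 and SJL (LFC −0.16 ± 0.08, FDR = 0.114) and SWR and 129 (LFC 0.05 ± 0.09, FDR = 0.682) did not differ beyond their spread, which left a high and a low pair of strains; without B6 female 1 SJL was below B6 (LFC −0.24, FDR = 0.00293). B6 exceeded 129 with an LFC of 0.56 ± 0.09 (FDR = 1.47e-06) and SWR was lower than B6 (LFC −0.51 ± 0.09, FDR = 8.9e-06). The SJL mice, at 4196 to 5044 (median 4585), did not overlap with the 129 mice, at 2569 to 3921 (median 3504), or the SWR mice, at 3247 to 3912 (median 3622). With the background as a covariate the difference of SJL from 129 (LFC 0.40 ± 0.09, FDR = 0.000328) did not pass (LFC 0.23, FDR = 0.101).

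Mirg was at 616 ± 128 normalized counts in B6, 576 ± 73.0 in SJL, 498 ± 135 in SWR and 341 ± 36.7 in 129 (SD, n = 8). It differed from 129 in each of the other strains, with an LFC of 0.86 ± 0.14 in B6 (FDR = 2.6e-06), 0.75 ± 0.13 in SJL (FDR = 2.72e-05) and 0.53 ± 0.14 in SWR (FDR = 0.00177). The 129 mice, at 285 to 385 (median 351), lay below all SJL mice, at 477 to 706 (median 578), and overlapped with B6 (314 to 725, median 645) and SWR (320 to 760, median 490). B6 and SJL did not differ beyond their spread (FDR = 0.541), nor did SWR and SJL (FDR = 0.204). SWR was lower than B6 (LFC −0.33 ± 0.13, FDR = 0.0462), a difference that ended when any 1 of 25 of the 32 libraries was left out (FDR 0.00114 to 0.134) and with the background as a covariate (LFC −0.25, FDR = 0.168), which also ended that of SWR from 129 (LFC 0.37, FDR = 0.0905).

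The 3 hosts did not keep 1 ratio in all strains. Mirg relative to Meg3 had a median of 0.195 in SWR (range 0.179 to 0.307), 0.157 in B6 (0.132 to 0.176), 0.149 in SJL (0.109 to 0.172) and 0.120 in 129 (0.1002 to 0.135), and the SWR mice lay above all others. Rian relative to Meg3 had a median of 1.63 in SWR, 1.299 in B6, 1.197 in SJL and 1.15 in 129. In SWR, then, Meg3 was low while Rian and Mirg, which lie downstream of it, were at or above their level in 129. Markers of other cell types differed between the strains as well. The 5 macrophage markers, all detected, had summed medians of 927 normalized counts in B6 (range 733 to 1041), 753 in SJL (704 to 882), 580 in SWR (505 to 692) and 387 in 129 (341 to 524), and the 6 smooth muscle and pericyte markers had 3051 (2359 to 9965), 2914 (2322 to 7101), 2386 (1667 to 4846) and 1494 (1183 to 4431). Both had the order of the mean levels of Rian and Mirg, and not that of Meg3, which was lowest in SWR. They are 2 of a larger set of cell type lists, and others had other orders. Mature vomeronasal neurons had medians of 35657 in 129, 34432 in SWR, 32674 in SJL and 28247 in B6, and fibroblasts 20513 in SJL, 20066 in B6, 18081 in SWR and 11334 in 129. The part of cell composition in the result was not tested. The ratios are not corrected for length and describe strains, not the relative number of molecules.

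Dlk1, the protein-coding gene of the cluster, gave 34 reads in the SJL libraries together, 26 in B6, 11 in SWR and 5 in 129. The mean levels were 4.04 ± 2.42, 4.10 ± 4.05, 1.41 ± 1.62 and 0.569 ± 0.695 normalized counts in the same order (SD, n = 8), and the SD exceeded or came near the mean in 3 of the 4 strains. Without the filter on low counts Dlk1 was higher than in 129 in B6 (LFC 2.37, FDR = 0.00628) and SJL (LFC 2.498, FDR = 0.00545), values that rest on 0 to 9 reads per library. At this depth no firmer statement on Dlk1 can be made.

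**Figure D3:**
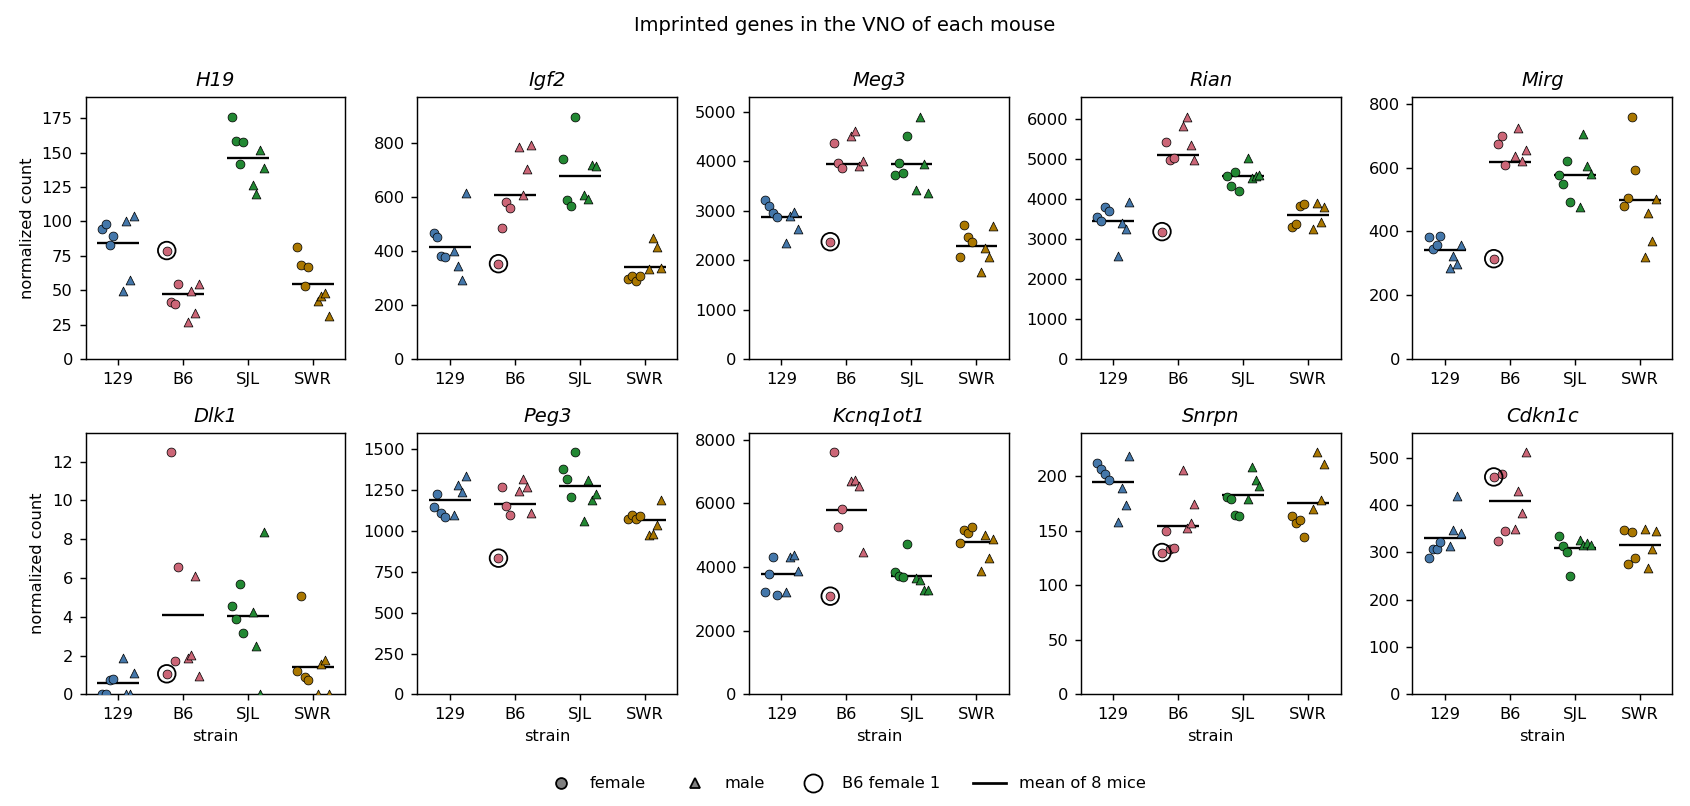
Normalized count of each member in every library by strain, with an axis from 0, circles for females, triangles for males, a ring for B6 female 1 and a bar for the mean of 8 mice. SJL lies apart for H19, and the ringed library lies below the other B6 mice for Igf2, Meg3, Rian, Mirg, Peg3, Kcnq1ot1 and Snrpn.

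Kcnq1ot1, an RNA that silences neighbouring genes on the paternal copy, was highest in B6, with 5780 ± 1462 normalized counts (SD, n = 8), followed by SWR (4784 ± 482), 129 (3777 ± 536) and SJL (3725 ± 447). It was higher in B6 than in 129 (LFC 0.61 ± 0.12, FDR = 5.57e-05) and lower in SJL than in B6 (LFC −0.64 ± 0.12, FDR = 3.99e-05). SWR stood between, above 129 (LFC 0.33 ± 0.12, FDR = 0.0235; up to 0.0536 without 129 female 1 or 129 female 4) and SJL (LFC 0.36 ± 0.12, FDR = 0.0185), and not separated from B6 (LFC −0.28 ± 0.12, FDR = 0.0539) unless B6 female 1 was left out (LFC −0.37, FDR = 0.00145). The B6 mice were widely spread, from 3087 to 7613 (median 6185), and overlapped with 129 (3126 to 4385, median 3820), SJL (3279 to 4712, median 3676) and SWR (3862 to 5254, median 4945). Kcnq1ot1 moved furthest of the 9 members in B6 against 129 with the background as a covariate: the LFC of B6 against 129 became 0.14 (FDR = 0.524) and that of SWR against 129 became 0.03 (FDR = 0.887), while the difference of SJL from B6 remained past the threshold (LFC −0.50, FDR = 0.000202). Whether the background has a part in the levels was not tested further.

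Cdkn1c, in the same cluster, differed from the other strains in B6 alone among the pairs tested. Its level was 408 ± 68.2 normalized counts in B6, 331 ± 40.6 in 129, 315 ± 34.8 in SWR and 310 ± 26.2 in SJL (SD, n = 8). B6 was above 129 (LFC 0.31 ± 0.08, FDR = 0.0021), and SJL (LFC −0.41 ± 0.08, FDR = 0.000153) and SWR (LFC −0.39 ± 0.08, FDR = 0.00031) were below B6, while the FDR among the other 3 strains was between 0.402 and 0.889. The B6 mice, at 323 to 512 (median 406), still overlapped with 129 (287 to 419, median 318), SWR (268 to 349, median 325) and SJL (250 to 335, median 315). Both Kcnq1ot1 and Cdkn1c were thus highest in B6, and the ratio of Kcnq1ot1 to Cdkn1c had a median of 16.3 in B6, 14.5 in SWR, 11.4 in SJL and 11.3 in 129.

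Peg3 and Snrpn were the steadiest members. Peg3, which encodes a zinc finger protein that represses placental and metabolic genes, was at 1274 ± 130 normalized counts in SJL, 1191 ± 91.8 in 129, 1163 ± 156 in B6 and 1065 ± 68.4 in SWR (SD, n = 8), a ratio of 1.196 between the highest and lowest mean. It differed only between the ends of this order, lower in SWR than in SJL (LFC −0.26 ± 0.07, FDR = 0.00383), among the 6 pairs. The SWR mice ranged from 977 to 1189 (median 1074) and the SJL mice from 1062 to 1485 (median 1271), and overlapped. Without B6 female 1 SWR was also below 129 (LFC −0.16, FDR = 0.0219) and B6 (LFC −0.19, FDR = 0.0106).

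Snrpn, which supplies a core splicing protein of neurons, was at 195 ± 20.1 normalized counts in 129, 183 ± 15.3 in SJL, 176 ± 27.1 in SWR and 155 ± 25.5 in B6 (SD, n = 8). It was lower in B6 than in 129 (LFC −0.34 ± 0.08, FDR = 0.000998) and higher in SJL than in B6 (LFC 0.24 ± 0.08, FDR = 0.0196), and the other 4 pairs did not pass. All strain ranges overlapped, with 130.04 to 206 in B6 (median 151) and 158 to 218 in 129 (median 199). With the background as a covariate B6 no longer differed from 129 (LFC −0.26, FDR = 0.12). Of the exon length of Snrpn, 27.3% is shared with other listed genes, among them Snurf on the same RNA, and reads there were not counted.

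Read over all members, 2 of the 9 tested, H19 and Igf2, were called in at least 1 of the 6 strain pairs at an FC above 2 and an FDR under 0.05, against 19.8% of the 18382 tested genes. The calls were 3 in all: H19 in SJL against B6 (7.99% of all genes were called in this pair), and H19 and Igf2 in SWR against SJL (4.5%). No member was called in B6 against 129 (11.1% of all genes), SJL against 129 (8.38%), SWR against 129 (7.73%) or SWR against B6 (8.05%). At an FDR under 0.05 alone, the counts were 8 of 9 in B6 against 129 (6 higher and 2 lower in B6, where 52.8% of all genes passed, 27.3% higher and 25.5% lower), 5 in SJL against 129 (all higher in SJL, where 38.3% passed, 18.9% higher and 19.4% lower), 4 in SWR against 129 (2 higher and 2 lower, where 41.8% passed, 19.9% higher and 21.8% lower), 4 in SJL against B6 (2 higher and 2 lower, where 45.7% passed, 22.3% higher and 23.4% lower), 5 in SWR against B6 (all lower in SWR, where 40.9% passed, 19.8% higher and 21.1% lower) and 6 in SWR against SJL (1 higher and 5 lower, where 32.5% passed, 15.5% higher and 17% lower). Every one of the 9 passed in at least 1 pair (80.1% of all genes) and in the test of any strain difference (73.1%; 8 of 9 with the background as a covariate), whose FDR ran from 3.09e-11 for H19 to 0.0119 for Peg3. The share called at an FC above 2, 2 of 9, was near that of all genes.

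The median LFC of the 9 members was 0.46 in B6 against 129, against 0.02 over all tested genes, and 0.40 against −0.01 in SJL against 129. It was −0.17 in SWR against 129, −0.01 in SJL against B6, −0.33 in SWR against B6 and −0.26 in SWR against SJL, with a median over all genes of −0.02 or −0.01. Pairs that share a strain also share its mice, so these medians are not independent. The members at the medians of B6 and SJL against 129, Meg3 and Rian, fell to an LFC of 0.25 and 0.23 with the background as a covariate. The covariate itself differs between strains. At an FDR under 0.05, the 5 members known as maternally expressed had 4 higher and 1 lower in B6 against 129 (all genes 27.3% and 25.5%), 4 and 0 in SJL against 129 (18.9% and 19.4%), and 1 and 2 in SWR against 129 (19.9% and 21.8%). They had 1 higher and 1 lower in SJL against B6 (22.3% and 23.4%), 0 and 4 in SWR against B6 (19.8% and 21.1%), and 0 and 3 in SWR against SJL (15.5% and 17%). Of these 5, Meg3, Rian and Mirg are neighbours in 1 cluster, so counts of members, here and below, are not counts of independent loci. With the background as a covariate Meg3 did not pass in B6 against 129 (FDR = 0.207). In SJL against 129 neither Meg3 (FDR = 0.0694) nor Rian (FDR = 0.101) passed with it. The 4 tested paternally expressed members had, in the same order of pairs, 2 higher and 1 lower, 1 and 0, 1 and 0, 1 and 1, 0 and 1, and 1 and 2.

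**Figure D4:**
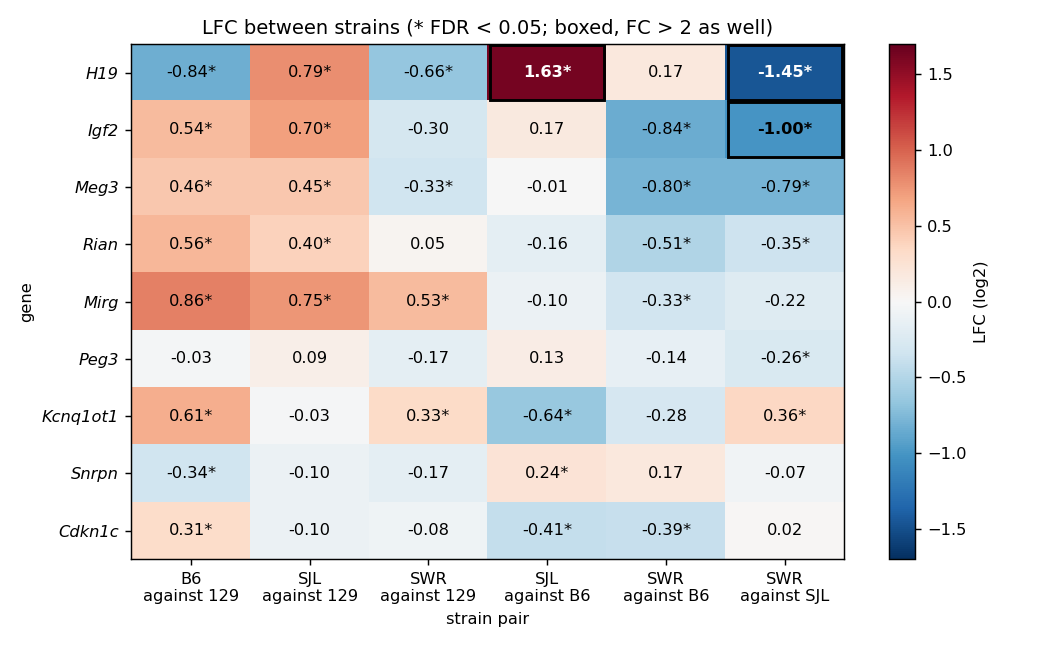
LFC of the 9 tested members in the 6 strain pairs, with a star for an FDR under 0.05 and a box where the FC was above 2 as well. The 3 boxes are H19 in SJL against B6 and H19 and Igf2 in SWR against SJL, and 8 of 9 members have a star in B6 against 129.

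By range, 5 of the 9 tested members, H19, Igf2, Meg3, Rian and Mirg, had 2 strains whose mice did not overlap, against 34.4% of all tested genes. SJL lay above 129 for 4 members (H19, Meg3, Rian and Mirg; 11.9% of all genes had no overlap in this pair), SWR lay below SJL for 4 (H19, Igf2, Meg3 and Rian; 10.2%) and SJL lay above B6 for H19 (13.1%). In B6 against 129 (14.4%), SWR against 129 (13.5%) and SWR against B6 (12.5%) the ranges of all 9 overlapped. These counts depend on B6 female 1, which lay below the other 7 B6 mice for 7 members and above them for H19. For Mirg it had 314 normalized counts against 608 to 725, for Meg3 2375 against 3864 to 4620 and for Rian 3189 against 4982 to 6069. Without it, B6 lay above 129 with no overlap for 4 members (Meg3, Rian, Mirg and Kcnq1ot1; 19.2% of all genes), SWR lay below B6 for 3 (Igf2, Meg3 and Rian; 15.6%) and SJL above B6 for H19 as before (16.3%). The LFC of Mirg in B6 against 129 was then 0.97 and that of Kcnq1ot1 0.71.

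Between the sexes no member was called at an FC above 2 and an FDR under 0.01, where 0.0381% of all genes were, or at an FDR under 0.05 (0.283%). H19 had a lower mean in males (LFC −0.37 ± 0.11, FDR = 0.19 with edgeR), Snrpn a higher one (LFC 0.17 ± 0.06, FDR = 0.322) and Igf2 a higher one (LFC 0.20 ± 0.09, FDR = 0.526), and these 3 were the members with an unadjusted p under 0.05. Over all genes 8.97% had such a p. DESeq2 called 0 members as well.

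Within single strains no member was called between the sexes either, where 0.0816% of all genes were called in SWR, 0.0544% in B6, 0.0544% in SJL and 0.0381% in 129, and none had an FDR under 0.05 (0.348%, 0.103%, 0.125% and 0.0816%). The mice of 1 sex nevertheless lay apart from those of the other for some members. In SWR the 4 females had 81.7, 68.5, 53.1 and 67.1 normalized counts of H19 and the 4 males 42.5, 45.5, 47.7 and 31.3, with the females above all males (LFC −0.69 ± 0.23, FDR = 0.295). The SWR females had 296, 309, 288 and 308 normalized counts of Igf2 and the males 334, 450, 416 and 338, the opposite order (LFC 0.35 ± 0.17, FDR = 0.603). In B6, too, the males had more Igf2 (785, 609, 704 and 792) than the females (354, 487, 584 and 562), with an LFC of 0.55 ± 0.17 (FDR = 0.334). The lowest of these females was B6 female 1, the library set apart above, which lowers the female mean. Snrpn had higher values in all males than in all females in both B6 (LFC 0.34, FDR = 0.334) and SWR (LFC 0.32, FDR = 0.243), and Kcnq1ot1 in all females in SJL. In all, 2 members had sexes that did not overlap in B6 (3.13% of all genes), 3 in SWR (6.69%), 1 in SJL (3.91%) and 0 in 129 (3.36%). The test of whether the sex difference changed with strain, in which 0.0163% of all genes passed, gave an FDR of 0.38 or more for every tested member. Its unadjusted p was under 0.05 for 4 of the 9 and for 8.94% of all genes, and 4 mice per sex and strain limit what these tests can show.

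Within groups, that is, after the mean of each strain and sex was subtracted from the log2 levels, the members that varied together were Meg3, Rian, Mirg, Peg3 and Kcnq1ot1. Over 32 libraries Pearson's r was 0.76 for Rian and Mirg, 0.74 for Meg3 and Mirg, 0.60 for Meg3 and Rian, 0.80 for Meg3 and Peg3, and 0.73 and 0.75 for Kcnq1ot1 with Meg3 and Rian. H19 and Igf2 had an r of 0.11, and Kcnq1ot1 and Cdkn1c one of −0.53. All points of such a correlation share their library, and with it depth and tissue composition, so r is given as a description only. B6 female 1 carried a part of it: without this library r was 0.53 for Rian and Mirg, 0.53 for Meg3 and Mirg, 0.29 for Meg3 and Rian, 0.10 in place of 0.53 for Kcnq1ot1 and Mirg, and 0.35 for H19 and Igf2.

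**Figure D5:**
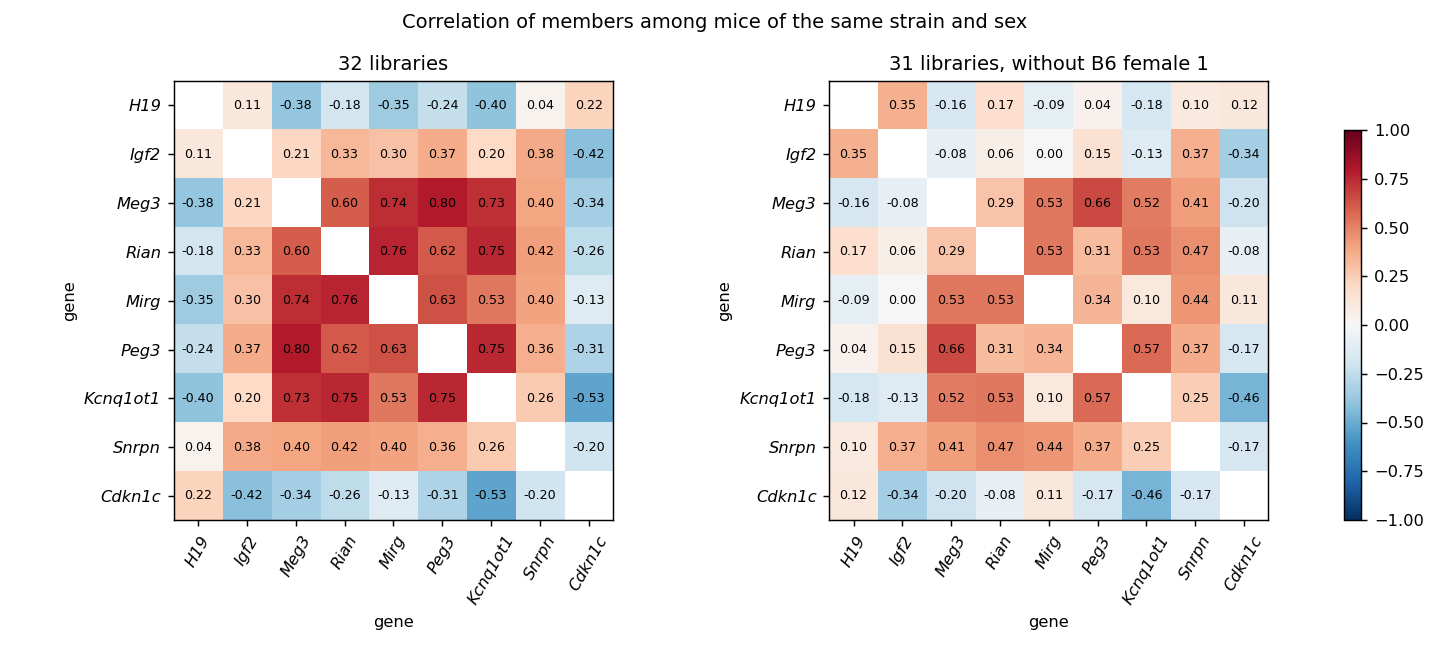
Pearson's r between the 9 tested members over the deviations from the mean of each strain and sex, with all 32 libraries on one side and 31 libraries, without B6 female 1, on the other. The block of Meg3, Rian, Mirg, Peg3 and Kcnq1ot1 is paler without that library, with 0.29 in place of 0.60 for Meg3 and Rian.

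Among the other 18381 tested genes, those whose deviations were most like each member were found in the same way. For Meg3 they were the nuclear lncRNAs Firre (r = 0.89) and Malat1 (0.87) and the gene Arhgap21 (0.87), which fell to 0.83, 0.80 and 0.77 without B6 female 1. For Kcnq1ot1 they were Gm42992 (0.96), 2610011E03Rik (0.95) and Cspp1 (0.95), all at 0.91 or above without that library. Rian was closest to Adgrg6 (0.89), Abca13 (0.88) and 4732440D04Rik (0.87), which had 0.77, 0.77 and 0.85 without it. Mirg was closest to Slc4a11 (0.82), Pnisr (0.79) and Smim18 (0.79), which fell to 0.62, 0.68 and 0.57. For Igf2 the closest were Egfl6 (0.82), the retinoic acid synthesis gene Aldh1a2 (0.73) and Cyth3 (0.72), and for H19 Hist1h2bb, Gm37271 and Tle6 (each 0.70). Peg3 was closest to 2610037D02Rik (0.84), Adamts16 (0.83) and Pappa (0.83), the last encoding a protease that cleaves IGF binding proteins, and these had 0.79, 0.70 and 0.72 without that library. Snrpn was closest to Gtpbp8 (0.83), Gprasp1 (0.76) and Faim (0.74), and Cdkn1c to G3bp1 (0.80), Hnrnpab (0.80) and Rad23b (0.77). For H19, Igf2, Snrpn and Cdkn1c the values without B6 female 1 lay between 0.63 and 0.83. The genes were picked as the top of a ranking of 18381, and their r is no test.

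A wider list held 61 other imprinted genes of 8 groups of loci, of which 46 were tested. Of these, 10 were called in at least 1 strain pair (21.7%, against 19.8% of all genes) and 0 differed by sex over all strains at an FDR under 0.05 (0.283% of all genes). The test of any strain difference was passed by 28 of the 46, against 73.1% of all genes. Against 129, 3 were called higher and 1 lower in B6 (11.1% of all genes were called in this pair), 5 higher and 1 lower in SJL (8.38%), and 5 higher and 2 lower in SWR (7.73%). In the Igf2-H19 cluster the antisense RNA Igf2os, at 4.64 ± 4.00 normalized counts over all mice, was higher than in 129 in B6 (LFC 1.61, FDR = 0.00258) and SJL (LFC 1.16, FDR = 0.0371) and lower in SWR than in SJL (LFC −1.26, FDR = 0.0266). It was also called lower in SWR than in B6, with an LFC of −1.89 to −1.48 and an FDR of 0.00863 or less when any 1 library was left out. Neither difference of Igf2os from 129 passed with the background as a covariate (LFC 0.40, FDR = 0.681 in B6, and LFC 0.28, FDR = 0.732 in SJL), and with DESeq2 that of SJL did not (FDR = 0.0564). Beside Peg3, Zfp264, annotated as a transcribed unprocessed pseudogene, was lower than in 129 in B6 (LFC −3.92, FDR = 4.33e-06), SJL (LFC −3.06, FDR = 2.83e-05) and SWR (LFC −2.23, FDR = 0.000442), with 16.3 ± 9.14 normalized counts in 129 and 1.01 to 3.55 in the other strains (n = 8). Among the neighbours of Snrpn, Atp10a, a phospholipid flippase gene, was higher in SWR than in 129 (LFC 1.15, FDR = 4.56e-09).

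Of the other called genes, Nnat, a proteolipid gene of developing neurons, was lower than in B6 in SJL (LFC −1.698, FDR = 3.07e-06) and SWR (LFC −1.93, FDR = 5.42e-07). Dcn, the proteoglycan gene decorin of fibroblasts, was higher in SJL than in 129 (LFC 1.03, FDR = 2.91e-08), where the summed fibroblast markers had a median of 20513 normalized counts in SJL and 11334 in 129; their part in the result was not tested. Ddc, the decarboxylase gene of dopamine synthesis, and Rasgrf1, an exchange factor gene, were higher in B6 than in 129 (LFC 2.67, FDR = 0.000177, and LFC 2.16, FDR = 0.000185), and neither passed with the background as a covariate (LFC 0.71, FDR = 0.455, and LFC 0.58, FDR = 0.477). These values rest on few reads per library: 0 to 5 in 129 for each gene, and 3 to 16 (Ddc) and 4 to 19 (Rasgrf1) in B6. Sfmbt2, Zdbf2 and Nespas were called in SWR against 129, with an LFC of 1.09, 1.18 and −1.02, and the call of Nespas ended in 6 of 32 cases when 1 library was left out (LFC −1.15 to −0.88). Nespas had 2 to 15 reads per library. With the background as a covariate the LFC of Sfmbt2 was 0.79 (FDR = 0.0164) and that of Zdbf2 0.90 (FDR = 0.0129), below an FC of 2. The Kcnq1 cluster had no call among 6 tested genes besides the members, and its most abundant gene was Cd81 (1542 normalized counts per kb). Ndn, near Snrpn, was not called, although it was at 280 ± 45.4 normalized counts in B6 and at 487 to 528 in the other strains (LFC of B6 against 129 −0.91, FDR = 1.16e-11). Mest, a paternally expressed hydrolase gene, was higher in males within B6 (LFC 0.54 ± 0.11, FDR = 0.0435) with an FC under 2.

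Around Igf2, 14 of 16 genes of the IGF pathway were tested, 13 passed the test of any strain difference (73.1% of all genes) and 4 were called in at least 1 pair (19.8% of all genes). The receptor that clears IGF2, Igf2r, itself imprinted, was at 1050 ± 97.3 normalized counts over all 32 mice, and the signaling receptor Igf1r was not called. The calls fell on binding proteins that hold IGFs outside the cell and on an RNA-binding protein. Igfbp3 was higher than in B6 in SJL (LFC 2.21, FDR = 3.4e-15) and SWR (LFC 1.98, FDR = 7.23e-14), with means of 303 normalized counts in SJL, 261 in SWR, 120 in 129 and 64.5 in B6. Igfbp4 (LFC 1.41, FDR = 4e-12) and Igfbp6 (LFC 1.22, FDR = 4.07e-06) were higher in SJL than in 129, and Igf2bp3, which binds Igf2 mRNA, was higher in B6 than in 129 (LFC 1.43, FDR = 0.000725), which did not pass with the background as a covariate (LFC 0.48, FDR = 0.463). Igf2bp3 had 1 to 17 reads per library.

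Of 10 genes that set or keep imprints, all tested, 9 passed the test of any strain difference (73.1% of all genes) and 2 were called in at least 1 pair (19.8% of all genes). Zfp57, whose protein protects methylated imprints, was at 42.6 normalized counts in 129 and 36.3 in B6, and lower than in 129 in SJL (14.3; LFC −1.56, FDR = 8.45e-09) and SWR (17.6; LFC −1.27, FDR = 2.96e-07). Dppa3, which protects methylation in the early embryo, was at 1.24 in 129 and 1.99 in SWR, and higher than in 129 in B6 (15.0; LFC 3.42, FDR = 1.13e-08) and SJL (24.3; LFC 4.17, FDR = 4e-11). It had only 0 to 3 reads per library in 129 and in SWR, 9 to 16 in B6 and 19 to 42 in SJL, so the size of these LFCs is uncertain. The DNA methyltransferase genes and Ctcf, whose protein insulates Igf2 from its enhancers on the maternal copy, were not called.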

How the data were processed

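RNA of VNO epithelium from 32 mice was sequenced as ribosome-depleted, strand-marking libraries, 1 per mouse. The authors trimmed reads with Trim Galore, aligned them to GRCm38 (mm10) with STAR and deposited read counts per Ensembl gene, taken from uniquely mapped pairs on the reverse strand. A pair that touched more than 1 gene was not counted. The authors also deposited a normalized signal, the count divided by a DESeq2 size factor, which is used here for levels. Exon lengths, places and promoters came from GRCm38 annotation.

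All tests used edgeR 4.0.16 in R 4.3.3 on the counts, with TMM scaling, a filter on low counts (18382 genes kept) and the quasi-likelihood F test. Strain pairs and sex came from an additive model, and sex within strains and the interaction from a model with both terms. The FDR was adjusted over all 18382 genes. Calls needed an FC above 2 and an FDR under 0.05 (0.01 for sex over all strains). The SE of an LFC was its size over the square root of its F value. Depth was 5106398 to 18640871 pairs per library. Each library was 1 mouse, so p-values rest on the spread between animals. Genes were named if they were members, if they were among the 3 most like a member, or if called in at least 1 pair on a list. Ndn, Cd81 and Mest were named after their values were seen. The members, lists and tests were chosen with earlier results of these data known. Alternatives were DESeq2 1.42.0, other size factors, no filter, a test against an FC of 2, a replicate block, a background covariate and leaving out each library. The scripts were tested on simulated counts.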

Additional observations from a re-analysis of the deposited data

Results flagged for a closer look

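In each group of 4 mice, the highest and the lowest value were set against the gap to the nearest of the others. Of 80 groups, 4 had a value whose gap, as a share of the group's range, was above the critical value of Dixon's test at 95%, and chance alone gives about 1 in 20, or 4. Rian in SJL male 1 was at 5044 normalized counts, with the other SJL males between 4544 and 4602. Dlk1 in SWR female 2 was at 5.07, with the other SWR females between 0.771 and 1.18. Kcnq1ot1 in B6 male 4 was at 4464, below 6533 to 6740 in the other B6 males. Kcnq1ot1 in SJL female 4 was at 4712, above 3684 to 3850 in the other SJL females.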

How the results depend on the processing

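No direction turned under any alternative among 70 comparisons of single genes. The 2 members called in at least 1 strain pair became 1, with Igf2 lost, under a test against an FC of 2, with DESeq2 size factors, under the replicate block, with the background as a covariate and with 129 male 1 and B6 female 1 both left out, a setting chosen after seeing the data. In SWR against SJL the 2 calls became 1 under the same settings and without the filter on low counts. Over all genes, the 827 calls of this pair became 343 under the test against an FC of 2 and lay between 827 and 1153 under the others. In B6 against 129 the count of 0 became 1 without the filter and with DESeq2 (Dlk1) and with both libraries left out (H19), and in SJL against 129 it became 1 without the filter and with DESeq2 (Dlk1). Over all genes, the calls went from 2044 to 10027, 5225 and 2532 in B6 against 129, and from 1540 to 4482 and 2798 in SJL against 129. Leaving out 1 library gave 1 to 2 called members over all pairs and 1 to 2 in SWR against SJL. At an FDR under 0.05, the 8 members in B6 against 129 became 4 with the background as a covariate, and the 4 in SWR against 129 became 7 with both libraries left out. Over all genes, 9702 became 5522 in the first case and 7678 became 8094 in the other. The 10 other imprinted genes called became 4 under the test against an FC of 2, 17 without the filter and 6 with the covariate. All genes called in B6 against 129 went from 2044 to 890, 10027 and 1528 under the same settings. The interaction of sex and strain, with 0 members, gave 2 without the filter (Igf2, FDR = 0.0174, and Mirg, FDR = 0.0114). Over all genes, the 3 that passed the interaction test became 428 of 44957 without the filter. The calls of Igf2os in SJL against 129 and in SWR against SJL ended in 7 and 3 of the 32 cases with 1 library left out, and that of Dcn in SJL against 129 in 3 cases (LFC 0.98 to 1.12). The test against an FC of 2 ended 25 of 41 comparisons of single genes, and the covariate ended 25 of the 70 comparisons; it differs between strains itself, so it also removes strain differences by construction.

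With 1 library or 1 replicate number left out, r lay between −0.041 and 0.74 for Meg3 and Rian, 0.21 and 0.83 for Meg3 and Mirg, 0.62 and 0.85 for Meg3 and Peg3, 0.53 and 0.78 for Mirg and Rian, 0.059 and 0.78 for Mirg and Peg3, and 0.15 and 0.69 for Peg3 and Rian. For Kcnq1ot1 it lay between 0.48 and 0.80 with Meg3, 0.30 and 0.90 with Rian, −0.059 and 0.69 with Mirg, and 0.57 and 0.82 with Peg3.

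Replicate numbers stood for sequencing lanes and were not used as a pairing in the main tests. Of 112 pairs of libraries with the same number, 25 had deviations with an r above 0.1. The median r was −0.022 (highest 0.56), against 0.011 for pairs with different numbers, and 10 of 32 libraries correlated best with their own number. The libraries highest in summed gland markers, B6 female 1, 129 male 1, SJL female 1 and 129 female 1, all had number 1. The number may thus carry structure in tissue composition. The block ended 1 of the 70 comparisons. Depth limits Dlk1, at 0 to 9 reads per library.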
